A study of Mus musculus with 12 samples.

Results

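ND5 is the mitochondrial gene for a core membrane subunit of NADH dehydrogenase, complex I of the respiratory chain. Its mRNA was followed across a polysome gradient of newborn mouse testis as an RNA that cytosolic ribosomes do not translate. The members were all probe sets whose only gene symbol was a gene of the mitochondrial genome. Of the 37 genes of that genome in the reference table (13 protein-coding, 22 tRNA and 2 rRNA genes), 1 had such a probe set. It was ND5, probe set 1426088_at, 1 of 18193 genes with a probe set of a single symbol. The other 12 mitochondrial protein-coding genes had no probe set under their symbol, so all statements on mitochondrially encoded mRNA rest on 1 probe set. In the reference gene order ND5 lies between the tRNA gene TrnL2 and ND6. ND5 was proposed for description with its polysome ratio at both ages already known, so those ratios are given as descriptions and without a test.

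Testes of CD-1 mice were taken at 1 and 4 days post partum (dpp), rinsed in buffer with cycloheximide, which stops elongating ribosomes on their mRNA, and frozen. After lysis the nuclei were spun out, and the remaining extract was separated on a linear sucrose gradient into 14 fractions. RNA of fractions 1 to 3, lighter than the monosome peak, formed the non-translating pool. RNA of fractions 7 to 13 formed the polysome pool. Each of the 4 groups (1 dpp non-translating, 1 dpp polysome, 4 dpp non-translating, 4 dpp polysome) had 3 arrays, labelled as biological replicates, and all 12 were of the same strain without any other treatment. How many animals went into a gradient is not given in the sources used here, and a p-value here weighs a difference against array-to-array spread, which may be technical. Labelling started from 5 ug of RNA in every pool, so a ratio of pools is relative to the other RNAs of each pool and does not give the share of ND5 molecules on ribosomes. The testis is a mixture of cells at both ages, and fewer cells of a type cannot be told apart from less RNA per cell.

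Mitochondrial mRNAs are transcribed inside the organelle as long RNAs that carry several genes and are cut at the tRNAs between them. They are translated in the matrix by mitochondrial ribosomes, whose RNAs are mitochondrial and whose proteins are nuclear products. The products of these mRNAs join subunits made from nuclear mRNAs on cytosolic ribosomes, and complex I is built from both. In a cytoplasmic gradient an mRNA such as ND5 is therefore a reference for RNA that does not depend on cytosolic polysomes, although the labels do not say whether lysis opened the mitochondria.

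Facts of the whole set bear on ND5 as follows. Signals ran from 3.71 to 23370, and 27022 of 45037 probe sets that were no controls passed the filter on low values (mean log2 signal of at least 4.12). They covered 13752 genes. The mean of 12 probe sets for spiked poly-A controls, added to RNA before labelling, was 1350 on 1 dpp polysome replicate 3, and 575.4 and 379.9 on replicates 1 and 3 of the 4 dpp polysome pool, against 2681 to 6223 on the other 9 arrays. The same 3 arrays had trimmed means of 137.5, 144.5 and 148.1, against 108.3 to 128.2 on the others. ND5 differences and the counts and medians of gene lists that moved when these 3 arrays were left out are given both ways. Of testis markers, 9 of 9 Sertoli, 7 of 8 germ cell, 4 of 4 Leydig and 4 of 4 peritubular ones passed the filter. So did 13752 of all 18193 genes, 6 of 6 markers of skeletal or cardiac muscle and 5 of 5 of macrophages. Passing the filter therefore does not identify the tissue.

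ND5 was bright in the non-translating pool and several times dimmer in the polysome pool at both ages. At 1 dpp the non-translating arrays read 5035, 6169 and 5948, a mean of 5717 ± 601.2 (SD, n = 3). The 1 dpp polysome arrays read 654.4, 978.5 and 414.1, a mean of 682.3 ± 283.2 (SD, n = 3). These groups did not overlap, and the lowest of the 3 polysome values was on the array with the low spike level. At 4 dpp the non-translating arrays read 2576, 9098 and 7067, a mean of 6247 ± 3338 (SD, n = 3). The 4 dpp polysome arrays read 728.2, 1768 and 348.9, a mean of 948.5 ± 734.9 (SD, n = 3). These groups did not overlap either, but replicate 1 of the non-translating arrays (2576) and replicate 2 of the polysome arrays (1768) came close to each other. By geometric means the order was 1 dpp non-translating (5695), 4 dpp non-translating (5492), 4 dpp polysome (766.1) and 1 dpp polysome (642.5). Within each pool the ages overlapped, so the neighbours in that order that differ only by age do not differ beyond their spread.

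**Figure D1:**
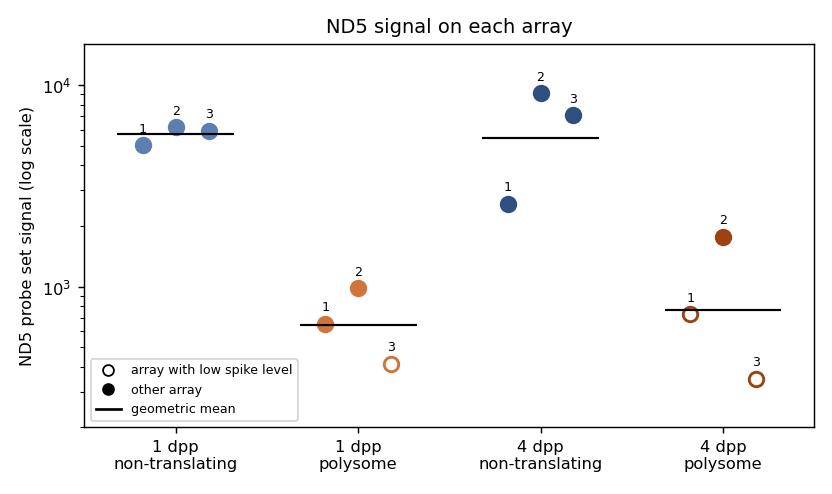
ND5 probe set signal (log axis) on each of the 12 arrays, by group, with numbers for replicates, lines for geometric means and open circles for the 3 arrays of low spike level. All 6 non-translating arrays lie between 2576 and 9098, all 6 polysome arrays between 348.9 and 1768, and the spread is wider at 4 dpp than at 1 dpp.

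The log2 difference of ND5, polysome minus non-translating, was -3.15 ± 0.57 (SE, 95% interval -4.38 to -1.91) at 1 dpp, an 8.85-fold lower geometric mean. At 4 dpp it was -2.84 ± 0.57 (95% interval -4.08 to -1.61), a 7.16-fold lower geometric mean. The median of all genes tested was 0.02 at both ages, and the 5th percentile was -1.24 at 1 dpp and -0.94 at 4 dpp. With 1 probe set a gene, ND5 ranked 7 from the lowest of 13752 genes at 1 dpp and 1 at 4 dpp. In these contrasts 17.3% of the probe sets at 1 dpp and 11.9% at 4 dpp had all polysome arrays below all non-translating arrays, and nothing is read from this for ND5, whose ratios chose it. The genes just below ND5 at 1 dpp were Gt(ROSA)26Sor (-3.23), a transcript known for the locus used for transgenes, and Col4a5 (-3.31), which encodes a basement membrane collagen chain. The gene just above ND5 was Ap3s1 (-3.04) at 1 dpp and Clec2d (-2.78) at 4 dpp. The percentile of ND5 among all probe sets of an array was 98.5 to 99.62 in the non-translating pool and 86.44 to 97.94 in the polysome pool. These percentiles come from the signals that gave the ratios of ND5, so nothing is read from them either.

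Each array of the polysome pools gave its own ND5 level relative to the non-translating geometric mean of the same age. At 1 dpp ND5 stood at 11.5%, 17.2% and 7.29% of that mean on replicates 1 to 3. At 4 dpp it stood at 13.3%, 32.2% and 6.37%. ND5 was lowest on replicate 3 at both ages, and both of these arrays had a low spike level. The third array with a low spike level, 4 dpp replicate 1, gave 13.3%, between the 1 dpp values. On the log2 scale the 6 values ran from -3.97 to -1.63, and the median of 30 non-coding RNAs ran from -2.14 to -0.66 on the same arrays. ND5 lay below the non-coding median on 6 of 6 arrays, and both were lowest on 4 dpp replicate 3 and highest on 4 dpp replicate 2. These arrays gave the ratios by which ND5 was chosen, so nothing is read from its place below that median. The median of 32 nuclear complex I subunits ran from -0.65 to 0.93 and that of all genes from -0.10 to 0.15. The part of the spike level and of labelling in the ND5 ratio was not tested.

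**Figure D2:**
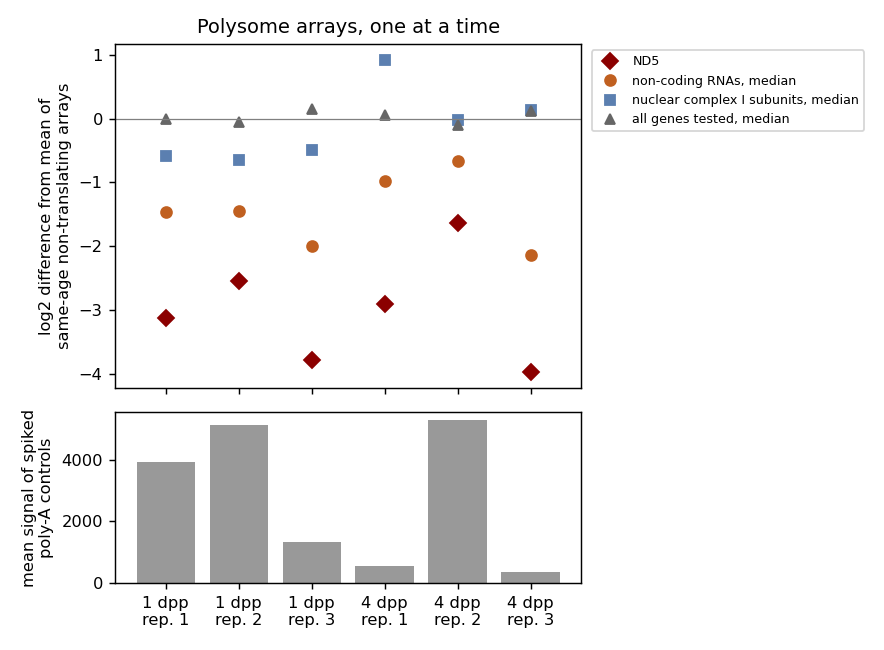
Upper panel, log2 difference of each polysome array from the mean of the non-translating arrays of its age, for ND5 and for the medians of the non-coding RNAs, the nuclear complex I subunits and all genes tested. Lower panel, mean signal of the spiked poly-A controls on the same arrays. ND5, chosen with its polysome ratios known, is the lowest marker on every array, from -3.97 to -1.63. The spike level is lowest on 1 dpp replicate 3 and 4 dpp replicates 1 and 3.

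Without the 3 arrays of low spike level, the ND5 difference was -2.83 at 1 dpp and -1.63 at 4 dpp, where a single polysome array remained. ND5 then ranked 25 at 1 dpp and 436 at 4 dpp, so its place at the bottom of the 4 dpp order rests on those arrays. With spike level as a block the difference was -2.69 and -1.92, and the ranks were 30 and 177. With 1 array left out at a time, the 1 dpp difference stayed between -3.45 (without polysome replicate 2) and -2.83 (without polysome replicate 3). The 4 dpp difference stayed between -3.44 (without polysome replicate 2) and -2.27 (without polysome replicate 3), and the rank of ND5 ran from 3 to 25 at 1 dpp and from 1 to 10 at 4 dpp. ND5 was lower in the polysome pool in each of these fits. This is the sign by which it was chosen, and leaving out an array of 1 age cannot change the difference at the other.

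**Figure D3:**
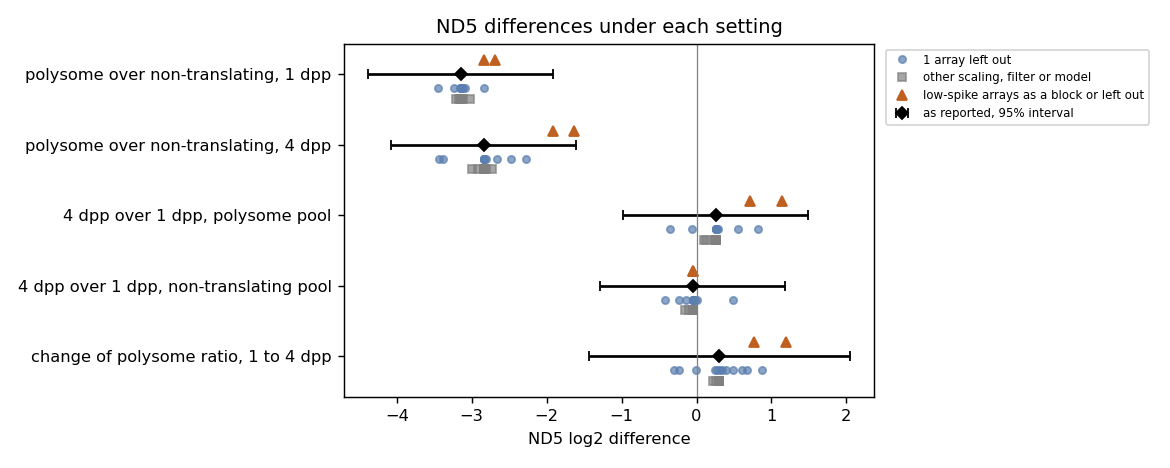
ND5 log2 differences as reported with 95% intervals (black), with 1 array left out (circles), under other scalings, filters or models (squares), and with the low-spike arrays as a block or left out (triangles). Both polysome ratios, by which ND5 was chosen, stay below 0 in each setting. Some settings leave the estimate unchanged by construction. The 3 comparisons by age or of the ratios have points on both sides of 0.

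The difference between ages within a pool was not used in choosing ND5. It was therefore tested with limma over all 27022 probe sets, with Benjamini-Hochberg adjustment. In the polysome pool ND5 differed by 0.25 ± 0.57 (log2, 4 dpp minus 1 dpp, 95% interval -0.98 to 1.49, adjusted p = 0.824 by limma). That interval allows a 4 dpp level from 0.507 to 2.81 times the 1 dpp level. In this comparison 5% of the probe sets passed an adjusted p of 0.05. The sign turned when polysome replicate 2 of 4 dpp was left out (-0.35) and when polysome replicate 3 of 1 dpp was (-0.06), and the difference was 1.14 without the low-spike arrays. In the non-translating pool ND5 differed by -0.05 ± 0.57 (95% interval -1.29 to 1.18, adjusted p = 1 by limma), which allows 0.41 to 2.27 times the 1 dpp level. Here 0.0037% of the probe sets, 1 of 27022, passed, and 1043 had an unadjusted p under 0.05. The sign turned without 4 dpp non-translating replicate 1 (0.49), the lowest of its group. On that array the ratio of the 3′ to the 5′ probe set of Actb, a measure of RNA length after labelling, was 84.1, against 4.479 to 32.79 on the other 11, and the part of RNA quality in the low ND5 signal there was not tested.

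The change of the ND5 polysome ratio from 1 to 4 dpp was 0.31 ± 0.80 (log2, 95% interval -1.44 to 2.05, adjusted p = 0.983 by limma). This change is the difference of the ratios at 4 and 1 dpp. Both were known when ND5 was chosen, so its p-value is not free of that choice and serves as a description. The interval covers a ratio from 0.369 to 4.15 times the earlier one, so with 3 arrays a group a change of ND5 within that range is not excluded. In this comparison 0.0037% of the probe sets, 1 of 27022, passed, and 1702 had an unadjusted p under 0.05. Without 4 dpp polysome replicate 2 the ND5 change was -0.30, without 4 dpp non-translating replicate 1 it was -0.24 and without 4 dpp polysome replicate 3 it was 0.87. Leaving out the low-spike arrays gave a change of 1.2. ND5 varied more between replicates than most probe sets: its residual SD was 0.82 on the log2 scale against a median of 0.37, the 94.3 percentile. By group its SD was 0.16 and 0.96 in the non-translating pools and 0.62 and 1.17 in the polysome pools, at 1 and 4 dpp. Markers of another tissue were read as well. Of 4 brown fat markers 3 passed the filter and Ucp1, the defining one, did not. The summed signal of all 4 was 130 to 275 on the 1 dpp arrays and 305 to 1441 on the 4 dpp arrays. Neither this difference nor its part in the ND5 values was tested.

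The other genes of the pathway are nuclear, and their mRNAs are read by cytosolic ribosomes. They were taken from 8 lists ordered by their place upstream and downstream of ND5, with 260 members above the filter. None of the 260 had a lower ratio than ND5 at either age, and 2 at 1 dpp and 0 at 4 dpp lay within the 95% interval of ND5. This count of 0 held at both ages with any 1 array left out. However, ND5 was chosen with these ratios known, and it ranked 7 and 1 from the lowest of 13752 genes. Few genes of any list could therefore lie below it, and nothing about the lists is read from this count. Without the low-spike arrays 1 of the 259 that then passed the filter, Pnpt1, an exoribonuclease of mitochondria, lay below ND5 at 4 dpp, and 0 at 1 dpp. Counts of calls below are by limma, with adjusted p under 0.05 over all probe sets and 1 probe set a gene. At 1 dpp 10.7% of all genes were called higher and 7.19% lower, and at 4 dpp 6.88% higher and 3.66% lower.

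Of the machinery that makes and keeps ND5 mRNA, 15 genes of mitochondrial DNA maintenance and transcription had a median ratio of 0.16 at 1 dpp (2 higher, 0 lower) and 0.49 at 4 dpp (1 higher, 0 lower). The 1 dpp median ran from 0.02 (1 dpp non-translating replicate 1 left out) to 0.31, and the 4 dpp median was 0.10 without the low-spike arrays. The higher count at 1 dpp was 1 when non-translating replicate 1 or polysome replicate 2 was left out and 3 without the low-spike arrays, and at 4 dpp it was 2 without polysome replicate 2. Top1mt, the mitochondrial topoisomerase, was higher in polysomes by 1.75 ± 0.23 (log2, adjusted p = 9.38e-04) and 1.61 ± 0.23 (adjusted p = 0.00278, limma). The 29 genes of mitochondrial RNA processing and stability had a median of 0.28 at both ages, with 4 higher and 1 lower at 1 dpp and 2 higher and 1 lower at 4 dpp. These medians were not stable: the 1 dpp median was 0.002 without polysome replicate 3, the 4 dpp median 0.045 without polysome replicate 3, and without the low-spike arrays they were 0.002 and -0.18. The higher count at 1 dpp was 2 with each of 6 arrays left out in turn and 8 without the low-spike arrays. At 4 dpp the higher count was 1 with each of 8 arrays left out in turn and 4 without polysome replicate 2. Mrm2, a methyltransferase of the mitochondrial large rRNA, was higher in polysomes by 1.87 ± 0.20 (log2, adjusted p = 5.88e-04) and 1.42 ± 0.20 (adjusted p = 0.00264, limma). Both genes passed with any 1 array left out. Without the low-spike arrays the differences at 1 and 4 dpp were 1.82 and 1.74 for Top1mt and 1.86 and 1.30 for Mrm2. ND5 mRNA was lower in the same pools, but this was known when it was chosen, so no contrast with these genes is read from it. In a fit to the 6 arrays of 4 dpp alone the call of Mrm2 ended (adjusted p = 0.0502, limma).

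Of the machinery that translates ND5 mRNA, 77 mitochondrial ribosomal proteins had a median of -0.18 at 1 dpp (6 higher, 15 lower) and 0.64 at 4 dpp (14 higher, 1 lower). Mrpl32, a large subunit protein, was lowest at 1 dpp, at -1.77 ± 0.24 (adjusted p = 0.00111, limma). This value is above the 95% interval of ND5, but the difference from ND5 was not tested. Nothing is read from this place, since the known low ratios of ND5 left few genes within or below its interval. The lower count at 1 dpp fell to 5 without 1 dpp non-translating replicate 2 and was 26 without the low-spike arrays. The higher count at 4 dpp ran from 2 (non-translating replicate 2 left out) to 32 (polysome replicate 2 left out). Leaving out these same arrays gave the fewest and the most calls over all probe sets at 4 dpp. The higher count at 1 dpp was 3 when any 1 of the 3 non-translating arrays or polysome replicate 1 of that age was left out. The medians were -0.41 and 0.15 without the low-spike arrays, and -0.41 at 1 dpp also without polysome replicate 3 of that age alone. The 25 translation factors and tRNA synthetases had medians of 0.30 (4 higher, 0 lower) and 0.42 (2 higher, 0 lower). Their 1 dpp median was 0.10 without polysome replicate 3 of that age and without the low-spike arrays. Their 4 dpp median was 0.20 without polysome replicate 3 of that age, and 0.22 without the low-spike arrays. The 4 higher at 1 dpp were 1 when non-translating replicate 2 or 3 or polysome replicate 1 or 2 of that age was left out, and 6 without the low-spike arrays. The 2 higher at 4 dpp were 0 with any 1 array of that age but polysome replicate 2 left out, 6 without that array, and 0 without the low-spike arrays.

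The partners of ND5 in complex I are the nearest comparison, since their proteins meet in 1 complex. Of 33 nuclear subunits with a probe set, 32 passed the filter, with a median ratio of -0.57 at 1 dpp (1 higher, 7 lower) and 0.25 at 4 dpp (5 higher, 0 lower). At 1 dpp the lowest were the accessory subunits Ndufa3 (-1.73 ± 0.36, adjusted p = 0.0076, limma) and Ndufa6 (-1.69 ± 0.32, adjusted p = 0.00452, limma). Both values are above the ND5 interval, but the differences from ND5 were not tested. Since ND5 was chosen with its ratios known, few genes could lie within or below its interval, and nothing is read from this. Ndufv1, the subunit that binds NADH, was higher in polysomes at 1 dpp by 1.35 ± 0.22 (adjusted p = 0.00209, limma) and at 4 dpp by 1.33 ± 0.22 (adjusted p = 0.00465, limma, and 0.0704 in a fit to the 6 arrays of 4 dpp alone). The count of lower subunits at 1 dpp ran from 4 (each of 7 arrays left out in turn) to 12 (without 4 dpp polysome replicate 1), and was 13 without the low-spike arrays. The higher count at 4 dpp ran from 2 without non-translating replicate 3 to 9 without polysome replicate 2. The positive 4 dpp median was 0.035 without polysome replicate 1 of that age, 0.56 without polysome replicate 2 and -0.01 without the low-spike arrays. The lower count at 4 dpp was 2 without polysome replicate 1, and 2 without the low-spike arrays. The 14 assembly factors of complex I had medians of 0.19 (0 called) and 0.39 (4 higher, 0 lower, and 1 higher without the low-spike arrays). Their 1 dpp median turned to -0.16 without polysome replicate 3 of that age and to -0.19 without the low-spike arrays, where 1 was called lower. Their 4 dpp median was 0.21 without polysome replicate 1, 0.78 without polysome replicate 2 and 0.047 without the low-spike arrays, and the higher count was 1 without non-translating replicate 1 or 2 or polysome replicate 3.

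Complexes II to V were read from 39 nuclear subunits. Their median was -0.62 at 1 dpp (1 higher, 8 lower) and 0.24 at 4 dpp (5 higher, 1 lower). The lowest, Atp5g2, a subunit of the ATP synthase membrane ring, stood at -2.00 ± 0.27 at 1 dpp (adjusted p = 0.0011, limma), and with Atp5j (-1.93 ± 0.27, adjusted p = 0.00119, limma) it lay within the interval of ND5. The lower count at 1 dpp was 14 without 4 dpp polysome replicate 1 and 25 without the low-spike arrays. The 4 dpp median turned to -0.18 without the low-spike arrays, to -0.11 with spike level as a block and to -0.006 without polysome replicate 1, and was 0.50 without polysome replicate 2. The 5 higher at 4 dpp ran from 1 (non-translating replicate 2 left out) to 10 (polysome replicate 2 left out) and were 3 without the low-spike arrays, and the 1 lower ran from 0 to 4 (polysome replicate 1 left out). For 29 genes of import and mitochondrial mass the medians were 0.06 (6 higher, 2 lower) and 0.33 (3 higher, 1 lower). Both medians turned without the low-spike arrays, to -0.025 and -0.018, and the 1 dpp median was -0.025 also without polysome replicate 3 of that age alone and 0.32 without polysome replicate 2. The 6 higher at 1 dpp ran from 3 (non-translating replicate 3 or polysome replicate 1 left out) to 10 (4 dpp polysome replicate 2 left out). The 3 higher at 4 dpp were 1 when non-translating replicate 2 or 3 or polysome replicate 3 of that age was left out, and 4 were lower without the low-spike arrays at each age.

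Non-coding RNAs share with ND5 that cytosolic ribosomes are not known to make a product from them. Of the 30 that passed the filter, 19 were lower in polysomes and 0 higher at 1 dpp, with a median of -1.55, and 15 were lower and 0 higher at 4 dpp, with a median of -1.34. ND5 lay below the median of this list at both ages, by its values of -3.15 and -2.84, and nothing is read from this, since these ratios chose it. At 1 dpp 3 of the 30 had a lower ratio than ND5, and 12 of the 30 lay within its interval. The lowest were Dancr (-3.76 ± 0.55, adjusted p = 0.00134, limma) and Snhg4 (-3.48 ± 0.35, adjusted p = 5.88e-04, limma), host genes of small nucleolar RNAs. At 4 dpp none of the 30 had a lower ratio than ND5 and 12 lay within its interval, Dancr (-2.44 ± 0.55, adjusted p = 0.0173, limma) and Snhg6 (-2.41 ± 0.39, adjusted p = 0.00448, limma) lowest. The call of Dancr at 4 dpp ended when any 1 of the arrays named next was left out (-1.91 without the low-spike arrays, adjusted p = 0.0748, limma), and that of Snhg6 ended in a fit to the 6 arrays of 4 dpp alone (adjusted p = 0.0539, limma). Leaving out 1 array of 4 dpp took the lower count there to 6 (non-translating replicate 2), 8 (non-translating replicate 3) or 9 (polysome replicate 3). Without the low-spike arrays it was 8, with 1 higher and a median of -0.66. ND5 was then at -1.63, with 3 of the 30 below it at 4 dpp and 4 of the 30 at 1 dpp. With 1 array left out, 1 (1 dpp polysome replicate 2 left out) to 4 of the 30 lay below ND5 at 1 dpp, and at 4 dpp 0, or 1 (Dancr) without polysome replicate 1.

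**Figure D4:**
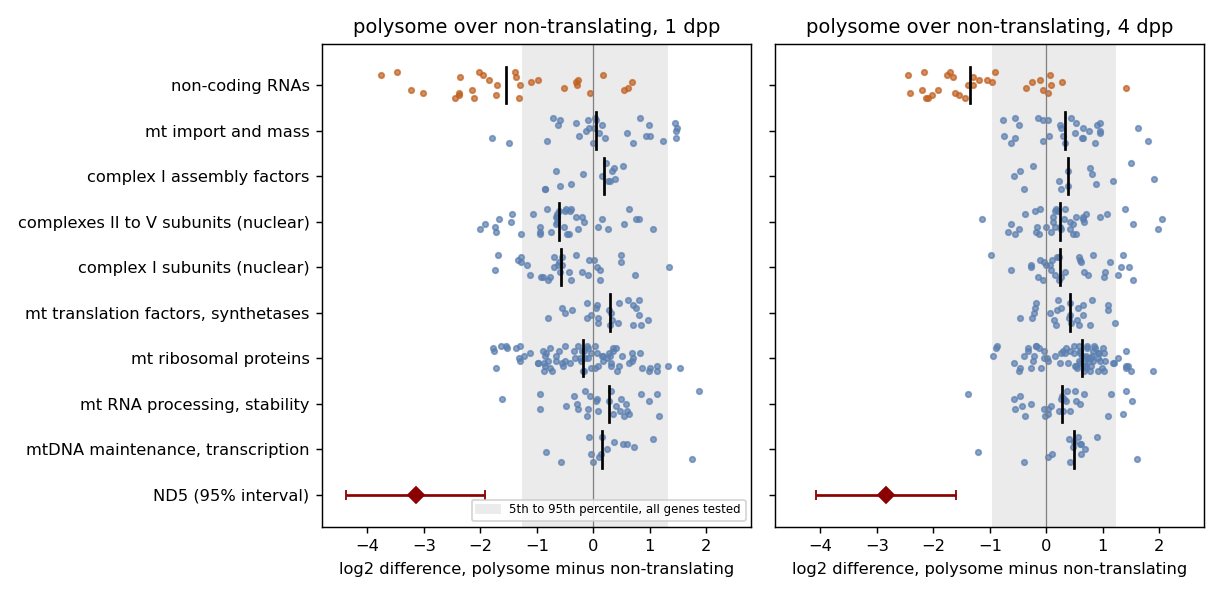
Log2 ratios, polysome minus non-translating, at 1 dpp (left) and 4 dpp (right), for ND5 with its 95% interval, 8 lists of nuclear genes for mitochondrial proteins and the non-coding RNAs. Points are genes, black lines list medians, and the grey band runs from the 5th to the 95th percentile of all genes tested. ND5, chosen with these ratios known, lies below every point of the 8 lists and below all but 3 non-coding RNAs at 1 dpp.

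With age, nuclear partners of ND5 rose in the polysome pool as deposited, where ND5 did not pass. Of the complex I subunits 10 of 32 were higher at 4 dpp and 0 lower (median 0.98), of complexes II to V 12 of 39 and 0 (median 0.94), and of the mitochondrial ribosomal proteins 25 of 77 and 0 (median 0.98). Of all genes 2.63% were called in each direction, with a median of -0.03. The largest was Ndufab1 among complex I subunits, an acyl carrier protein, at 2.31 ± 0.42 (adjusted p = 0.0195, limma). In a fit to the polysome arrays alone it did not pass (adjusted p = 0.173, limma), so its call rests on the spread shared with the non-translating arrays. These counts were 0 for all 3 lists, and Ndufab1 did not pass, when polysome replicate 1 or 2 of 1 dpp, polysome replicate 1 of 4 dpp, or the low-spike arrays were left out. Without 4 dpp polysome replicate 2 they were 21, 26 and 43. The medians were 0.70, 0.63 and 0.68 without the low-spike arrays. The difference between ND5 and these lists was not tested, and 25 of the 32 complex I subunits lay within the 95% interval of ND5. In the non-translating pool and for the change of ratio, 0 members of the 9 lists passed, and 1 of all 27022 probe sets (0.0037%) did in each.

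The genes most like ND5 were found by the root mean square (RMS) difference of log2 signal over the 12 arrays, each gene centred on its own mean. The median RMS of all genes to ND5 was 1.74. The nearest was Marchf2, a membrane-bound E3 ubiquitin ligase (RMS 0.36), then Rbms2, an RNA-binding protein (0.46), Snhg12 (0.47), Dancr (0.48) and Snhg5 (0.53). Fam120aos (0.53), Snhg6 (0.56), Gltp (0.57), Bola3 (0.58) and Wdr38 (0.59) completed the first 10, and Snhg12, Dancr, Snhg5 and Snhg6 are host genes of small nucleolar RNAs. Since ND5 was chosen by its pool ratio, a profile near ND5 has a low ratio by construction, and those of the 10 ran from -3.76 to -1.99 at 1 dpp and from -2.44 to -1.85 at 4 dpp.

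Marchf2 read 3310, 3147 and 2844 on the 1 dpp non-translating arrays and 589.3, 701.2 and 302.3 on the 1 dpp polysome arrays. At 4 dpp Marchf2 read 1156, 3256 and 3935, then 575.6, 1122 and 221. As with ND5, non-translating replicate 1 was lowest at 4 dpp, polysome replicate 2 highest and polysome replicate 3 lowest at both ages. A second Marchf2 probe set gave ratios of -2.60 and -1.76, near those of the first (-2.63 and -2.23). For Rbms2 the second probe set went the other way (0.51 and 0.72, against -2.81 and -2.04), and for Snhg5 (0.12 and -0.37, against -2.39 and -2.03) and Bola3 (-0.23 and -0.38, against -2.89 and -2.44) it was near 0, so for these 3 genes the likeness to ND5 belongs to 1 probe set. Of the 10 genes, 10 stayed among the nearest after scaling to a trimmed mean and 9 after quantile normalization. With a pseudocount of 16, 9 did, and with one of 64, 7 did. Without the low-spike arrays 1 of the 10, Rbms2, did, and Sh3gl3 came first.

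**Figure D5:**
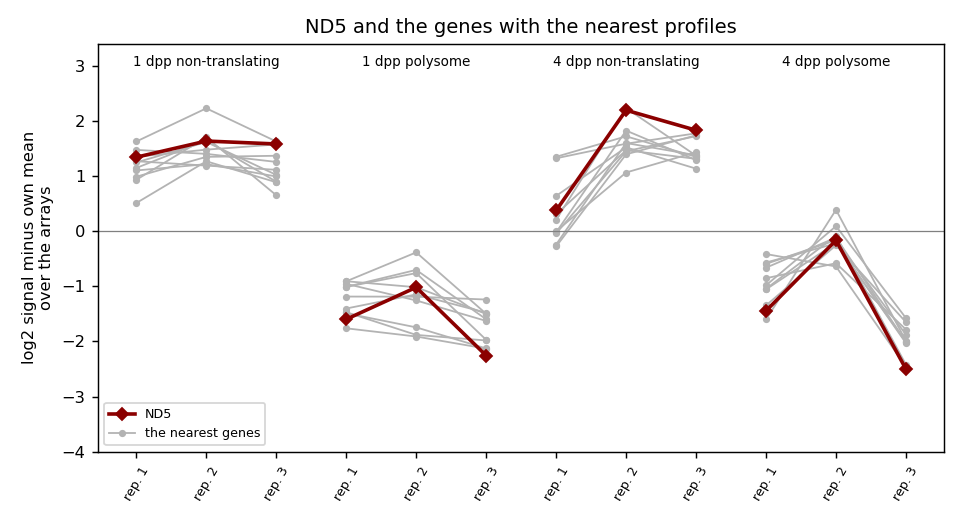
Log2 signal minus each gene's own mean over the 12 arrays, for ND5 (red) and its 10 nearest genes (grey), by group. Lines join the replicates of a group only to show which points belong to 1 gene, since replicates have no order. ND5 and the 10 genes have lower means in the polysome than in the non-translating pools at both ages. Within the 4 dpp polysome group ND5 and all 10 are lowest on replicate 3, and within the 4 dpp non-translating group ND5 and 9 of the 10, all but Snhg6, are lowest on replicate 1.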

How the data were processed

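The authors' deposited table holds 1 intensity (signal) per probe set and array, on a linear scale, made with MAS5 per the submitters' processing notes. The version and the scaling are not given in the sources used here. Values were taken as log2(signal + 1) with no further scaling. Probe sets with a mean log2 of at least 4.12, the 40th percentile, were tested. Of 45037 probe sets, 34945 had 1 symbol in the platform annotation, 932 several and 9160 none. For lists and ranks each gene was read from its probe set of highest mean signal.

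A model with the 4 group means was fitted over all 12 arrays with limma 3.58.1 (eBayes with trend, R 4.3.3). There were 5 contrasts, each adjusted by Benjamini-Hochberg over 27022 probe sets, with calls at 0.05. The script was tested on simulated data. Members and lists were chosen with earlier results of these data known. Named are all mitochondrial genes, from each list up to 3 called members with the largest change in the direction with more calls and 1 in the other, and the 10 nearest profiles. Genes beside ND5 in the ranking were named after their values were seen, as were Pnpt1 and range ends of the lists.

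Alternatives were a trimmed mean scaling, quantile normalization, pseudocounts of 16 and 64, no filter, 1 probe set a gene, no trend, only the groups compared, blocks of replicate number and spike level, and each array left out. No mitochondrial sequence was used here.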

Additional observations from a re-analysis of the deposited data

How the results depend on the processing

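ND5 was lower in the polysome pool under all 24 alternatives at each age. Many of these cannot change the ND5 estimate, such as no filter, 1 probe set a gene, no trend, the replicate block and only the groups compared. Leaving out an array of the other age cannot change it either. The sign is also that by which ND5 was chosen, so nothing is read from the count of 24. The 4 dpp difference moved by more than the spread to -1.92 with spike level as a block. It moved to -1.63 without the 3 low-spike arrays, a setting chosen after seeing the data. With 1 array out it ran from -3.45 to -2.83 at 1 dpp and -3.44 to -2.27 at 4 dpp. Without the low-spike arrays, which leaves 1 polysome array at 4 dpp, the age difference of ND5 in polysomes was 1.14 and the change of ratio 1.2. With only 1 array out the age difference ran from -0.35 to 0.82 in the polysome pool and -0.42 to 0.49 in the non-translating pool. The change of ratio then ran from -0.30 to 0.87. Adjusted p by limma over all alternatives was 0.36 to 0.954, 0.924 to 1 and 0.665 to 1. The replicate block left these values at 0.25, -0.05 and 0.31 (adjusted p = 0.767, 1 and 0.957, limma), with an SE of 0.45 for the age differences against 0.57 without it. Over all groups 8 of 18 same-number pairs had correlated deviations over 0.1 (r from -0.63 to 0.78). Between the pools of 1 age r was 0.57, -0.58 and -0.03 at 1 dpp and -0.16, -0.23 and 0.35 at 4 dpp. These mixed values do not settle whether arrays of equal number share a gradient, and the main fit treats the arrays as unpaired.

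Of 27022 probe sets, 4767, 2981, 1350, 1 and 1 passed in the ratio at 1 dpp, the ratio at 4 dpp, polysomes by age, non-translating by age and the change of ratio. With 1 array out the counts ran from 2429 to 6232, 941 to 5442, 2 to 5197, 0 to 2 and 1 to 9. Spike level as a block gave 8409, 4894, 2516, 2 and 2. Without the low-spike arrays they were 7371 at 1 dpp, then 13, 2 and 0 in the last 3. Only the groups compared gave 229 at 4 dpp, then 2 and 0 by age. With 1 probe set a gene 2621, 1533 and, for the change, 2 passed, of 13752 tested. No filter gave 767 in polysomes by age and 3 in the non-translating pool, where quantile normalization and pseudocount 16 gave 2 and pseudocount 64 gave 3. No trend gave 2 for the change. Of the calls at 4 dpp 68.2% were higher in polysomes, against 54.6% after trimmed mean scaling and 52.8% after quantile normalization. Trimmed mean scaling moved the median of all genes to -0.13 at 4 dpp and -0.16 in polysomes by age. Signal over background could not be read from 1 deposited value per probe set, and 3 arrays a group limit the precision.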
